A study of Rattus norvegicus with 6 samples.

Results

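The genes described here encode 7 subunits of the GABA-A receptor, namely Gabra2, Gabra3, Gabra4 and Gabra5 of the alpha class, Gabrb1 and Gabrb2 of the beta class, and Gabrg1 of the gamma class. They were taken by name from the deposited gene table and are 7 of its 30957 rows. All 7 were among the 14908 genes with enough counts to be tested. The table holds 19 rows whose name begins with Gabr, and the other 12 are summarised after the members.

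GABA is the main inhibitory transmitter of the brain and shares that role with glycine in the spinal cord. It opens the GABA-A receptor, a ring of subunits around a chloride channel. GABA binds where an alpha subunit meets a beta subunit, and a gamma subunit beside the alpha forms the benzodiazepine site. The subunits that make up a receptor set its place in the cell, its kinetics and its drug response. In the dorsal horn, receptors with the alpha-2 and alpha-3 subunits restrain the input of pain fibres, and blocking GABA-A receptors there makes touch painful in normal animals.

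The study asked which transcripts of the spinal cord change in bone cancer pain (BCP). Adult female Wistar rats received Walker 256 cells, a rat mammary carcinoma line, in the marrow cavity of the left tibia, living in the BCP group and heat-killed in the sham group, so that both groups had the same operation and carried tumour cell material. The side of the lumbar enlargement facing the injected leg was collected on day 14 without its meninges, and total RNA was sequenced after removal of ribosomal RNA in 3 sham and 3 BCP libraries. There was 1 time point, no untreated group is part of the comparison, and the dissected piece holds dorsal horn, ventral horn and white matter together, so a change in one layer or cell type is averaged with all the others. In such bulk samples fewer cells of a type and less RNA per cell cannot be told apart. Whether each library came from 1 rat is not given in the sources used here, and p-values therefore measure the spread between these samples.

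The libraries held 13366905 to 15004290 gene counts in the sham group and 11779485 to 13764758 in the BCP group. Raw counts of the members ranged from 215 to 1401 per library. Libraries of the same group differed from each other by more than sampling noise, with a chi-square of 3.48 to 6.04 per degree of freedom, so none was counted as a repeat of another. Levels are given as CPM, a gene's counts scaled to the same library total after TMM normalization, and a gene is said to have risen or fallen where the adjusted p of edgeR's quasi-likelihood test was under 0.05. The study's own thresholds also ask for an absolute log2 fold change over 1.

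In the build of the files, Rnor_6.0, Gabrb1, Gabra4, Gabra2 and Gabrg1 lie in a row on chromosome 14, from position 38643385 to 40049354, a stretch of 1.41 Mb. The gene table lists 5 genes inside it, and the only one that is not a member, Cox7b2, had no counts. Gabrb1 spans 38643385 to 39112600, Gabra4 39154529 to 39231695, Gabra2 39661968 to 39798302 and Gabrg1 39964588 to 40049354. Gabra5 lies on chromosome 1 (112833975 to 112947173), Gabrb2 on chromosome 10 (27973681 to 28187565) and Gabra3 on the X chromosome (152414615 to 152642531). GABA-A subunit genes in vertebrates lie mostly in such clusters, and the group on chromosome 14 is one of them.

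The RefSeq promoter table for rat (build GRCr8) has an entry for 6 of the 7 members, each covering 250 bases before and 50 bases after the annotated start. Gabra2 is the member without an entry. Promoters are shown for 3 of the genes that fell and for the beta pair, which share sequence, and all are written along the gene's own strand, 5′ to 3′. Among the fallen genes, GGGCGG (the GC box), TATAAA (the TATA box) and CCAAT were searched on both strands, and matches are in capitals. A match on the reverse strand is shown as its reverse complement, such as ATTGG for CCAAT.
Gabra3, chrX:155543821-155544120, minus strand: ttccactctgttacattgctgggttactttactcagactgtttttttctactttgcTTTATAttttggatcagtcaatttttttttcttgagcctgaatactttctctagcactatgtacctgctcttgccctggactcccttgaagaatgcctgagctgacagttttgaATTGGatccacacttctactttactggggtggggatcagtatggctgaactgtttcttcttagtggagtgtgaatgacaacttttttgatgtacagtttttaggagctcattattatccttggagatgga
Gabra5, chr1:117516557-117516856, minus strand: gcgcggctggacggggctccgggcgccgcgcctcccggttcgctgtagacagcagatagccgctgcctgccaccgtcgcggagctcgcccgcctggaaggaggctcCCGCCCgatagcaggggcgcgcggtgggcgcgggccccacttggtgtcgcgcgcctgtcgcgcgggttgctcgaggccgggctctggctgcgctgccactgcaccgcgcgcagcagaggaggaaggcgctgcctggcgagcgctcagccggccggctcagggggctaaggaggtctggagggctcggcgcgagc
Gabrg1, chr14:37750042-37750341, plus strand: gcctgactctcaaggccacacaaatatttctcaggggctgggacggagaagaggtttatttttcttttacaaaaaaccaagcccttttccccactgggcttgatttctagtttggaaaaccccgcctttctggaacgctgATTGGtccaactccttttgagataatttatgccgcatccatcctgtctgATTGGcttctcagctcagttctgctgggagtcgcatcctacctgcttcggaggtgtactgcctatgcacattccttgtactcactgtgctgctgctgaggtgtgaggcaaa

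The 3 promoters differ widely in composition. That of Gabra5 had a GC content of 76.3% and 42 CpG dinucleotides and held the GC box, which 33.1% of all 33469 rat promoters in the table hold. That of Gabra3 had 39.3% GC and no CpG, and held a TATAAA match on the reverse strand, found in 14.2% of promoters, and CCAAT, found in 37.5%. That of Gabrg1 lay between them with 48.7% GC and 6 CpG, near the medians of all promoters, 51.7% and 7. The promoter of Gabra4, which did not pass the test, was close to that of Gabra5, with 70.7% GC, 35 CpG and the GC box. None of the 6 promoters held TGACGTCA, the palindromic cyclic AMP response element, which is in 1.83% of all promoters.

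In the beta pair the capitals mark matches to CCAAT and to GCATGCGC, the core of the site of the factor NRF1, on either strand.
Gabrb1, chr14:36902844-36903143, minus strand: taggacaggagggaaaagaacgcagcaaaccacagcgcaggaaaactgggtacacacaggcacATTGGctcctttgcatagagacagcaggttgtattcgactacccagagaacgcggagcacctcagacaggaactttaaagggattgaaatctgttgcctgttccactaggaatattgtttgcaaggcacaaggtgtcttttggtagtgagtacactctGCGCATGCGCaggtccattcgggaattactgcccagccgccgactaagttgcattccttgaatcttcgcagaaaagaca
Gabrb2, chr10:27439543-27439842, plus strand: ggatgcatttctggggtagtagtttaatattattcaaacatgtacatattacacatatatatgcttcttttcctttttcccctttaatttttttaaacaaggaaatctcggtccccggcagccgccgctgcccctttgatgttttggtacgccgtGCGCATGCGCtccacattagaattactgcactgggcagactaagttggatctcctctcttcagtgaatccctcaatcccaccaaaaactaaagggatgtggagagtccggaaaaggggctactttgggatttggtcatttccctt

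Gabrb1 and Gabrb2 lie on different chromosomes, and their promoters share 5 stretches of at least 9 bases and 9 distinct words of 9 bases, where the other 14 pairs of member promoters share 0 to 3 words. The longest is TGCGCATGCGC, which begins at position -30 in Gabrb1 and at -96 in Gabrb2, counted from 0 at the annotated start, and is in 0.598% of all promoters. It contains GCATGCGC on both strands in overlapping matches, and 2.47% of promoters hold that core on either strand. GAATTACTGC and GACTAAGTTG, the next in length, are in 0.0388% and 0.0149% of promoters. The motifs and the comparison of the pair were chosen after the sequences had been seen, and a match is a description of these letters.

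All 7 members had a lower fitted level in the BCP group, although Gabra4 was level with sham when libraries were scaled by their size only (log2 fold change 0.0011), and for 4 of them, Gabra2, Gabra3, Gabra5 and Gabrg1, the fall passed the test, by 11.4% to 16.0% of the sham level. No member rose, and none of the 7 passed the study's thresholds. Of all tested genes, 12.1% fell, 15.8% rose and 6.45% passed the study's thresholds in either direction, so 4 of 7 falling (57.1%) stands beside a background of 12.1%. The members' median log2 fold change was -0.20, beside -0.01 over all tested genes, of which 7792 of 14908 had a negative value. In 5 members every BCP library was below every sham library in CPM, which held for 19.8% of tested genes. The changes were thus mostly in one direction and small. The plot of CPM by library shows these values.

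**Figure D1:**
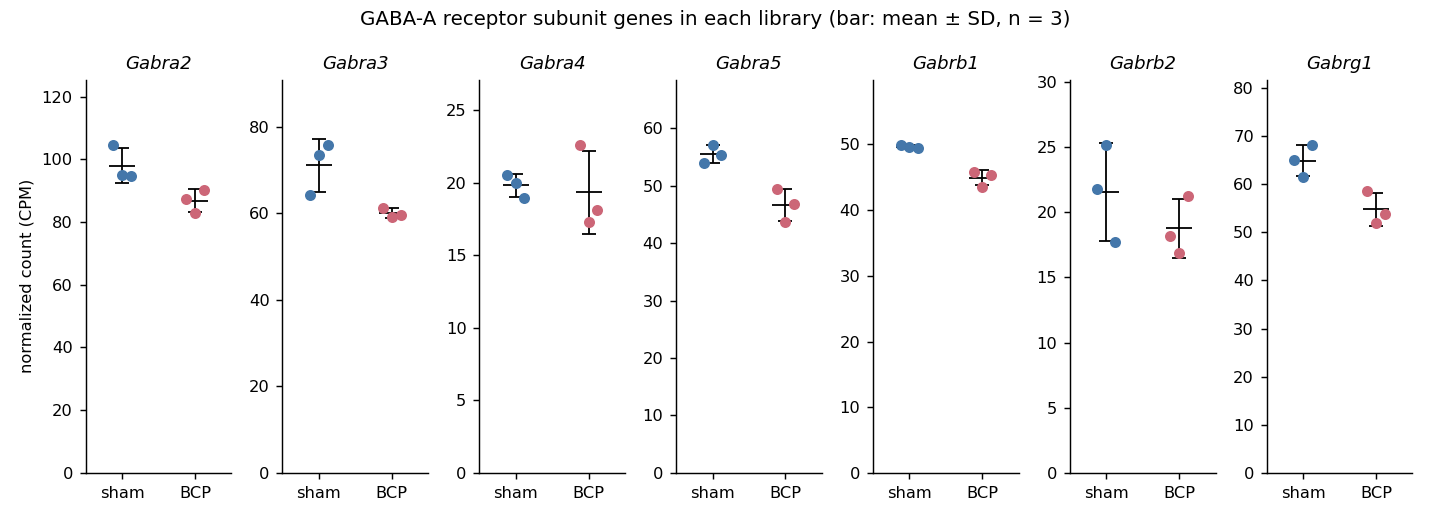
CPM of each member (y axes from 0, a separate scale for each gene) in the 3 sham and 3 BCP libraries, with points for libraries and bars for mean ± SD. The groups do not overlap for Gabra2, Gabra3, Gabra5, Gabrb1 and Gabrg1, and overlap for Gabra4 and Gabrb2.

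The alpha subunits carry one face of the GABA site and decide much of a receptor's drug response. Gabra2 encodes the alpha-2 subunit, common at synapses of the dorsal horn and on motor neurons. It stood at 104.5, 94.9 and 94.7 CPM in sham, against 87.3, 83.0 and 90.1 CPM in BCP. Every BCP library lay below every sham library, and the first sham library stood above the other two. The group means were 98.0 ± 5.59 and 86.8 ± 3.60 (SD, n = 3 each), a log2 fold change of -0.18 ± 0.058 (SE) with an adjusted p of 0.0290 in edgeR's quasi-likelihood test. The fall of Gabra2 was the least secure of the 4. Its adjusted p was 0.0673 with DESeq2, 0.0895 with edgeR's exact test and 0.0878 with its likelihood ratio test, and it was 0.0958 with scaling by library size only, 0.155 without sham 1, 0.0578 without BCP 1 and 0.146 without BCP 2.

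Gabra3 encodes the alpha-3 subunit, found in the superficial dorsal horn. It measured 64.1, 73.5 and 75.7 CPM in sham and 61.3, 59.0 and 59.6 CPM in BCP. The BCP libraries were close together and all below sham, and the first sham library was nearest to them. Means were 71.1 ± 6.13 and 60.0 ± 1.18 CPM, and Gabra3 fell by 0.25 on the log2 scale (SE 0.068, adjusted p = 0.00963 with edgeR), or 15.7%. Without sham 3 the adjusted p was 0.0654.

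Gabra5 encodes the alpha-5 subunit, which forms receptors largely outside synapses that carry a steady inhibitory current. Its CPM was 54.0, 57.1 and 55.4 in sham and 49.4, 43.7 and 46.9 in BCP. The lowest sham library was above the highest BCP library. The means of 55.5 ± 1.54 and 46.7 ± 2.83 CPM differed by a log2 fold change of -0.25 (SE 0.070, edgeR adjusted p = 0.0104), a level 16.0% lower in BCP. Without BCP 2, its lowest library, the adjusted p was 0.0740.

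Gabra4 encodes the alpha-4 subunit, which pairs with the delta subunit in receptors outside synapses in the forebrain. It had 20.5, 20.0 and 18.9 CPM in sham and 22.6, 17.3 and 18.1 CPM in BCP. The highest and the lowest of the 6 libraries were both BCP libraries, so the groups overlapped. The log2 fold change was -0.04 (SE 0.110, adjusted p = 0.837 with edgeR), and its sign turned under 3 alternatives: 0.0011 with scaling by library size only, 0.038 without BCP 2 and 0.0042 without BCP 3. At the spread of these libraries no difference in Gabra4 was detected in either direction.

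The beta subunits carry the other face of the GABA site. Gabrb1 encodes the beta-1 subunit. Its CPM was 49.9, 49.7 and 49.4 in sham and 45.7, 43.6 and 45.4 in BCP. Sham libraries were almost identical and all above BCP, with means of 49.6 ± 0.240 and 44.9 ± 1.15 CPM. The log2 fold change of -0.15 (SE 0.068) nevertheless did not pass the test, with an adjusted p of 0.128 in edgeR, where the spread of a gene is moderated by that of all genes.

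Gabrb2 encodes the beta-2 subunit, in the brain a partner of the most common synaptic receptor. It had 21.8, 25.1 and 17.7 CPM in sham and 18.2, 16.9 and 21.3 CPM in BCP. The lowest sham library lay below 2 of the 3 BCP libraries, and the spread within the sham group was the widest of the members relative to the level. With means of 21.6 ± 3.73 and 18.8 ± 2.27 CPM the log2 fold change was -0.20 (SE 0.126, adjusted p = 0.279 with edgeR), larger than that of Gabra2, which passed, but with a wider error. Single libraries moved it to -0.07 without sham 2, -0.12 without BCP 2, -0.30 without BCP 3 and -0.32 without sham 3 (adjusted p = 0.0558 with edgeR in the last).

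Gabrg1 encodes the gamma-1 subunit, a less common gamma subunit that glial cells also express and that makes receptors with little sensitivity to classical benzodiazepines. It measured 65.1, 61.5 and 68.1 CPM in sham and 58.7, 52.0 and 53.8 CPM in BCP. All BCP libraries were below all sham libraries. The means of 64.9 ± 3.30 and 54.8 ± 3.47 CPM gave a log2 fold change of -0.25 (SE 0.069, adjusted p = 0.0105 with edgeR), or 15.6% lower in BCP. Without sham 3 the adjusted p was 0.0595 and without BCP 2 it was 0.0647.

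Leaving out single libraries changed how many members fell. It was 2 without sham 3 (Gabra2 and Gabra5) and 1 without BCP 2 (Gabra3), and no member passed both the test and an absolute log2 fold change over 0.5. Falls over all tested genes also dropped, from 1805 of 14908 to 1411 of 15095 without sham 3 and 1226 of 15055 without BCP 2. The members' falls lay within the ordinary range of change in these libraries, since 13.7% to 23.1% of all tested genes had a lower log2 fold change than the fallen members. The plot of fold changes shows the range over the libraries left out.

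**Figure D2:**
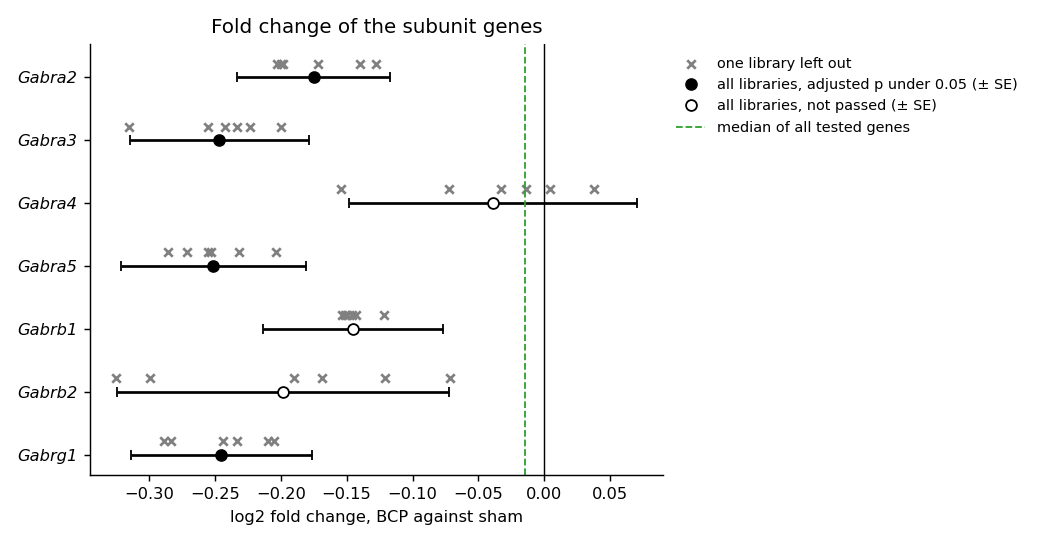
Log2 fold change of each member, BCP against sham, with its standard error (bars), the values with each library left out in turn (crosses) and the median of all tested genes (dashed line at -0.01). The 4 filled points passed the test, and crosses of Gabra4 alone lie on both sides of 0.

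Levels of different genes can be compared only per gene length, and for this the authors' FPKM values, fragments scaled to gene length and library total, were used. In the sham group Gabra2 had the highest FPKM of the members, 39.6 ± 2.11 (SD, n = 3), followed by Gabrg1 with 36.8 ± 1.84, Gabrb1 with 25.4 ± 0.0906 and Gabra3 with 24.0 ± 2.15. Gabra5 followed with 14.2 ± 0.443, Gabrb2 with 10.1 ± 1.76 and Gabra4 with 4.41 ± 0.172. Sham libraries of Gabra2 and Gabrg1 overlapped, as did those of Gabrb1 and Gabra3, and the other neighbours in this order did not. Gabra2 was higher than 87.9% of all tested genes in mean sham FPKM and Gabra4 higher than 30.7%. The order was the same in the BCP group, from 36.1 ± 1.53 FPKM for Gabra2, 32.0 ± 1.79 for Gabrg1 and 23.6 ± 0.531 for Gabrb1 to 20.8 ± 0.264 for Gabra3, 12.3 ± 0.673 for Gabra5, 9.07 ± 1.13 for Gabrb2 and 4.43 ± 0.616 for Gabra4. There no neighbours overlapped.

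The makeup of the alpha class was compared as each gene's share of the summed FPKM of the 4 alpha members. Gabra2 took 48.2 ± 2.73% in sham and 49.0 ± 1.13% in BCP (exact permutation p = 0.6, n = 3). Gabra3 took 29.2 ± 2.53% and 28.3 ± 0.705% (exact permutation p = 0.6, n = 3), and Gabra5 17.3 ± 0.482% and 16.7 ± 0.427% (exact permutation p = 0.2, n = 3). No reordering of the class was seen, as the shares of these genes overlapped between groups. Gabra4 took 5.37 ± 0.218% in sham and 6.01 ± 0.716% in BCP, and its shares did not overlap, although the highest sham share and the lowest BCP share, 5.56% each, differed only beyond the third digit (exact permutation p = 0.1, the smallest that 3 against 3 libraries can give, n = 3). Gabrb2 took 28.4 ± 3.50% of the FPKM of the beta pair in sham and 27.7 ± 2.11% in BCP (exact permutation p = 0.8, n = 3). These tests were two-sided, and adjusted over the 5 shares the p-values were 0.5 to 0.8, in a design that could not reach 0.05.

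**Figure D3:**
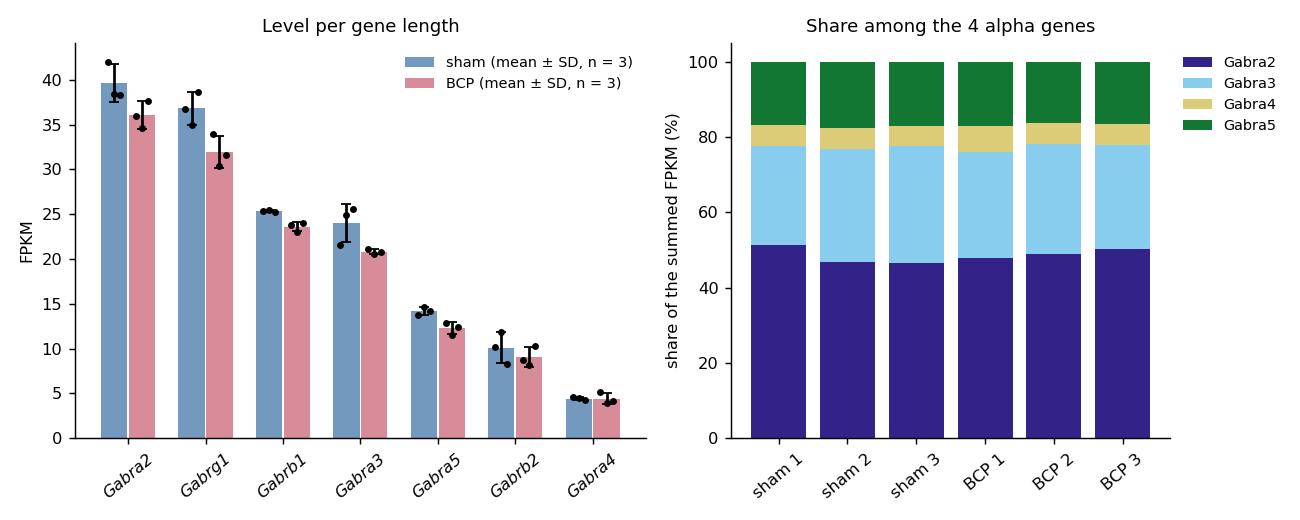
Left, FPKM of each member in sham and BCP (bars for mean ± SD, n = 3, points for libraries), ordered by the sham mean. Right, the percent of the summed FPKM of the 4 alpha members in each library, with Gabra2 at 46.6% to 51.3% and Gabra4 at 5.13% to 6.84% over the 6 libraries.

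The other 12 rows of the family include subunits of the alpha, beta, gamma, delta, epsilon, theta, pi and rho classes. Counts were present in 10, and 6 had enough to be tested. None of the 6 passed edgeR's test (adjusted p from 0.0916 to 0.979), and 1 had an unadjusted p under 0.05. Their log2 fold changes ran from -0.18 to 0.0035 with a median of -0.09. Gabra6 and Gabrp had no counts, where 3 counts in the smallest library correspond to 0.255 CPM, a limit for counting error only. Of all 13 tested rows of the family, 4 fell (30.8%), each of them a member, and the median was -0.18.

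Genes that work with the receptor were taken from 6 lists of 73 names, 68 of them in the gene table, and 66 rows of the table were tested, Nrxn3 counting as 2 rows. Of these rows, 26 fell, 4 rose and 36 did not pass, with a median log2 fold change of -0.12 beside -0.01 over all tested genes. With scaling by library size only, 17 fell. Over all tested genes 12.1% fell and 15.8% rose, and the counts of each list below stand beside these shares. The list of GABA synthesis, transport and breakdown had 5 of 10 genes that fell and 1 that rose, with a median of -0.24. Slc6a11, the transporter GAT-3 of astrocytes, fell from 182 ± 3.16 to 136 ± 14.3 CPM (log2 fold change -0.42, SE 0.062, edgeR adjusted p = 5.7e-05). Abat, the transaminase that breaks GABA down, fell from 317 ± 7.45 to 261 ± 10.9 CPM (edgeR adjusted p = 8.5e-05). The falls thus included genes of uptake and of breakdown. Slc6a12, a transporter of betaine and GABA, rose from 1.02 ± 0.228 to 4.72 ± 1.53 CPM (edgeR adjusted p = 1.5e-05), and its CPM stayed low in both groups. Picked out after their values were seen, Gad1 and Gad2, the enzymes that make GABA, had log2 fold changes of -0.09 (SE 0.049) and -0.04 (SE 0.048) and did not pass (edgeR adjusted p = 0.218 and 0.588). Slc32a1, which loads GABA and glycine into vesicles, fell by 0.32 on the log2 scale (SE 0.060, edgeR adjusted p = 0.000434).

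Among genes of the receptor's scaffold, assembly and trafficking, 12 of 29 tested rows fell and 1 rose, with a median of -0.12. The gene that rose, Gabarap, which binds gamma subunits and moves receptors within the cell, went from 117 ± 4.79 to 141 ± 6.97 CPM (edgeR adjusted p = 0.000653). Gabarap also serves autophagy in all cells. Chosen after its value was seen, Gphn, which encodes the anchor gephyrin, had a log2 fold change of -0.10 (SE 0.054) and did not pass (edgeR adjusted p = 0.185). Of 11 tested modulators, such as enzymes of neurosteroid synthesis and kinases, 2 fell and 1 rose (median -0.12). The one that rose was Tspo, a mitochondrial protein that takes part in steroid synthesis and is a marker of microglia in injury, from 1.27 ± 0.455 to 6.41 ± 2.0 CPM (log2 fold change 2.35, SE 0.298, edgeR adjusted p = 7.6e-06).

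The remaining inhibitory genes changed in part, beside 12.1% of all tested genes that fell and 15.8% that rose. Both tested genes of the GABA-B receptor, the G-protein-coupled GABA receptor, fell (median -0.21), Gabbr2 not in edgeR's exact and likelihood ratio tests (adjusted p = 0.0664 and 0.0644), with library size only (0.0510) or without sham 3 (0.0703), BCP 2 (0.111) or BCP 3 (0.0669). Of 4 tested glycine receptor genes, 1 fell (median -0.01), namely Glra1, the adult alpha subunit, from 365 ± 12.8 to 299 ± 6.77 CPM (log2 fold change -0.29, edgeR adjusted p = 4.5e-05). Of 10 genes of chloride transport, 4 fell and 1 rose (median -0.08). Slc12a7, the potassium-chloride cotransporter KCC4, rose from 13.1 ± 3.51 to 20.3 ± 2.03 CPM (log2 fold change 0.63, SE 0.169, edgeR adjusted p = 0.0153), a call lost without sham 1 (0.0751), BCP 1 (0.0544) or BCP 2 (0.0590). Slc12a5, the cotransporter KCC2 that keeps chloride low in neurons, and Slc12a2, the cotransporter NKCC1 that brings chloride in, were looked up after their values were seen. Slc12a5 went from 339 ± 15.1 to 280.1 ± 4.18 CPM (edgeR adjusted p = 1.0e-04) and Slc12a2 from 561 ± 11.9 to 477 ± 19.2 CPM (edgeR adjusted p = 0.000308), so both fell.

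Markers of cell types also differed between groups, some lower in BCP like the members and some higher. Of 16 neuronal genes 12 fell, with a median of -0.19, close to the members' -0.20, and their summed level was 12754 to 13017 CPM in sham and 10811 to 11915 CPM in BCP. Of 12 oligodendrocyte genes 11 fell (median -0.39), from 40745 to 46208 CPM in sham to 29392 to 32643 CPM in BCP. Of 12 microglial genes 10 rose (median 2.04), from 289 to 388 CPM in sham to 1113 to 1376 CPM in BCP. Of 12 astrocyte genes 6 fell and 1, Gfap, rose (median -0.13), with sums of 6873 to 7217 CPM in sham and 8248 to 10147 CPM in BCP. Gfap was at 2163 to 2469 CPM in sham and at 3729 to 4440 CPM in BCP, the largest part of the higher sums of BCP 2 and BCP 3. The highest sum, that of BCP 1, was raised more by Aqp4 than by Gfap. Aqp4 was at 2415 CPM there against 354 to 379 CPM in the other 5 libraries. Slc1a3 was at 98.1 CPM in sham 1 and at 251 to 328 CPM elsewhere. Neuronal and glial markers were thus present in every library. Of 8 tested genes of dorsal root ganglion and nerve root 2 fell (131 to 146 CPM in sham, 96.1 to 118 in BCP). Of 3 tested muscle genes 1 fell (49.9 to 62.2 CPM in sham, 46.7 to 53.0 in BCP). Most of the muscle sum was Pvalb, which is also on the list of inhibitory dorsal horn neurons. Pvalb had 48.5 ± 5.86 CPM in sham and 44.3 ± 2.73 CPM in BCP. Tnnc2, the muscle gene that fell, had means of 4.56 and 1.86 CPM, and Acta1 3.40 and 3.05 CPM. The part of these markers in the members' falls was not tested.

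**Figure D4:**
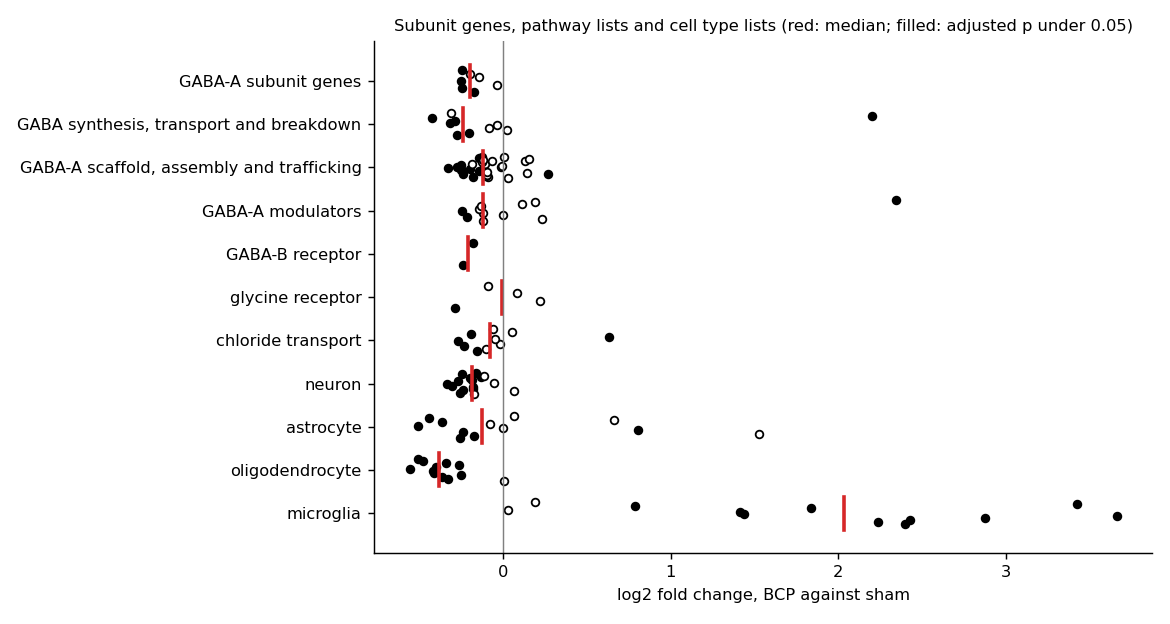
Log2 fold change, BCP against sham (x axis), of each tested gene (points, filled where the adjusted p was under 0.05) of the 7 members, the 6 pathway lists and 4 cell type lists, with each list's median as a red bar. The medians of the members (-0.20) and of neuronal genes (-0.19) lie close together, that of oligodendrocyte genes lies lower (-0.39) and that of microglial genes higher (2.04).

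Among the members, Gabra5 and Gabrb1 followed the mean profile of the 7 most closely over the 6 libraries, with r of 0.984 and 0.983, although Gabrb1 did not pass the test. Gabrg1 followed with 0.899, Gabra2 with 0.864 and Gabra3 with 0.784, while Gabrb2 (0.609) and Gabra4 (0.528) followed it least. These correlations are descriptions, since each member is part of the mean and all genes share the same libraries and groups. The tested genes outside the members with the profile most alike were Jakmip3 (r = 0.999), Pygm, the muscle-type glycogen phosphorylase that astrocytes also use (r = 0.997), and Tpcn1, a cation channel of endosomes (r = 0.997). Their log2 fold changes were -0.24, -0.42 and -0.32. These 3 were picked as the highest, over only 6 libraries in 2 groups. Of the 14908 tested genes, 262 outside the members had an r over 0.95.

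Within 10 kb of 5 members, or overlapping them, the lncRNA table lists 11 transcripts, of which 6 overlap a member, and none is listed at Gabra4 and Gabra5. Of these, 8 had enough counts to be tested, and none passed (edgeR adjusted p from 0.216 to 0.968), beside 1.97% of all 12157 tested lncRNAs that passed in either direction. An unadjusted p under 0.05 was found for 2, and DESeq2 called 0. CPM of lncRNAs were scaled to the lncRNA counts of each library, 2231298 in sham 1 beside 13366905 gene counts. They therefore cannot be compared with the CPM of the members. The nearest to the threshold was MSTRG.33310.2, a transcript assembled by the authors 1502 bases from Gabra3, with 349.9, 326.4 and 396.3 CPM in sham and 281.3, 321.1 and 259.8 CPM in BCP (log2 fold change -0.31, SE 0.10, edgeR adjusted p = 0.216). MSTRG.9713.1, inside the span of Gabrb1, had 102.8, 101.7 and 107.3 CPM in sham and 58.9, 45.4 and 95.5 CPM in BCP (log2 fold change -0.64, SE 0.26, edgeR adjusted p = 0.355). Both lay lower in every BCP library, but with a wide spread within BCP.

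A second transcript of each locus was nearly absent in sham and too uneven to be tested. MSTRG.33310.3 had 0, 1 and 0 counts in sham and 82, 0 and 198 counts in BCP. Added together, the 2 transcripts near Gabra3 held 349.9, 326.8 and 396.3 CPM in sham and 324.0, 321.1 and 354.4 CPM in BCP, so the sums overlapped between groups where MSTRG.33310.2 alone did not. In the same way MSTRG.9713.2 had 0, 1 and 0 counts in sham and 3, 98 and 0 in BCP, and with it the sum inside Gabrb1 was 102.8, 102.1 and 107.3 CPM in sham and 60.4, 90.4 and 95.5 CPM in BCP, still lower in every BCP library. The other tested transcripts were MSTRG.9716.1 (log2 fold change 0.91, SE 0.40, edgeR adjusted p = 0.384), NONRATT009340.2 (-0.16) and NONRATT009339.2 (-0.05) at Gabra2, NONRATT004175.2 at Gabrb2 (0.48, SE 0.25, edgeR adjusted p = 0.488), MSTRG.9712.1 at Gabrb1 (-0.24) and NONRATT009341.2 at Gabrg1 (-0.08). Whether counting used strand is not given in the sources used here, so reads of NONRATT009339.2, MSTRG.9712.1, MSTRG.9713.1 and NONRATT009341.2, which overlap members, may not be separable from reads of those members.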

How the data were processed

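Total RNA of the ipsilateral lumbar cord was sequenced in 3 sham and 3 BCP libraries on day 14, and groups and replicate numbers were taken from the labels. After read filtering with Seqtk, the authors aligned to Rnor_6.0 by HISAT2 2.0.4 and used StringTie 1.3.0 (versions from the submitters' processing notes). The authors deposited raw counts of each gene and lncRNA transcript, with FPKM values beside them. How reads were counted, with or without strand, and how reads with several locations were handled is not given in the sources used here. A count that is split between similar transcripts, as for lncRNA isoforms, moves with that step.

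Gene counts entered edgeR 4.0.16 (R 4.3.3) after filterByExpr (5737 genes with counts left out), with TMM factors of 0.982 to 1.02, a robust quasi-likelihood fit on the group and Benjamini-Hochberg adjustment over all 14908 tested genes. The biological coefficient of variation was 7.72%. Each SE of a log2 fold change was derived from the quasi-likelihood F test. It is the absolute log2 fold change divided by the square root of the F statistic. The lncRNAs were fitted separately. FPKM served to compare levels between genes. Shares were tested with exact permutation in SciPy 1.17.1 (Python 3.11.15), and figures were drawn with matplotlib 3.10.9. The scripts were tested on simulated data. The alternatives were DESeq2 1.42.0, edgeR's exact and likelihood ratio tests, 2 other filters, 3 other scalings, the replicate number as a block, an absolute log2 fold change over 0.5 and each library left out.

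The members and lists were chosen with earlier results of these data known. All members are named, and of the pathway lists the 4 genes with the smallest p in each direction among those that passed, with other names said to be picked afterwards. Some genes that these rules select are not reported here. The 3 genes most like the members in profile are named, as are the tested lncRNAs at members. Promoters came from RefSeq (GRCr8), and no coordinates were converted between builds. The cell type lists covered neurons, dorsal horn inhibitory and excitatory neurons, motor neurons, astrocytes, oligodendrocytes and their precursors, microglia, endothelium, dorsal root ganglion and nerve root, and skeletal muscle.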

Additional observations from a re-analysis of the deposited data

How the results depend on the processing

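Gabra3, Gabra5 and Gabrg1 passed the test in 14, 14 and 13 of 15 alternatives and Gabra2 in 8 of 15, all with a negative log2 fold change. Gabra2 had -0.17 with DESeq2, the exact test and the likelihood ratio test and -0.13 with library size only (adjusted p = 0.0958), none of which passed. With single libraries left out the log2 fold change ran from -0.20 to -0.13 for Gabra2, -0.32 to -0.20 for Gabra3, -0.15 to 0.038 for Gabra4, -0.29 to -0.20 for Gabra5, -0.15 to -0.12 for Gabrb1, -0.32 to -0.07 for Gabrb2 and -0.29 to -0.21 for Gabrg1, and 1 to 4 members fell. In those fits 1226 to 1747 of all tested genes fell. Gabra4 turned to 0.0011 with library size only. With an absolute log2 fold change over 0.5, 0 members fell. With library size only 17 pathway genes fell, against 26. Over all genes, 1805 fell and 2352 rose, against 2401 and 2134 with upper-quartile scaling and 1257 and 2673 with library size only, which shifted the median log2 fold change to -0.05 and 0.03. Gabrb1 and Gabrb2 passed in none of 15 alternatives. The causes of these changes were not tested.

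Samples with the same replicate number did not deviate together (correlations of -0.105, 0.0439 and -0.0353), so the numbers were not taken as pairs. With the replicate number as a block 4 members fell, among them Gabra2 with a log2 fold change of -0.17 (edgeR adjusted p = 0.0418), and 1597 of all genes fell and 2217 rose. With the block the call of Slc6a5, given with the other markers, was lost (edgeR adjusted p = 0.0637).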

Other observations

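Markers of neuron types that carry or receive GABA input did not move as one. Their counts stand beside 12.1% of all tested genes that fell and 15.8% that rose. Of 9 tested genes of inhibitory dorsal horn neurons 2 fell and 1 rose, with a median log2 fold change of -0.13 and a summed level of 1054 to 1190 CPM in sham and 1022 to 1053 CPM in BCP. Those that fell were Slc32a1 and Slc6a5, the neuronal glycine transporter (log2 fold change -0.16, edgeR adjusted p = 0.0363, a call lost on leaving out any of 5 of the 6 libraries, with adjusted p from 0.0721 to 0.165, with the replicate block at 0.0637, in the exact and likelihood ratio tests at 0.132 and 0.130 and with library size only at 0.127), and the one that rose was Pdyn, the precursor of dynorphin, from 15.2 ± 2.87 to 24.0 ± 2.49 CPM (log2 fold change 0.65, SE 0.128, edgeR adjusted p = 0.000883). Of 9 tested genes of excitatory dorsal horn neurons 3 fell (median -0.12, 537 to 559 CPM in sham and 459 to 499 CPM in BCP). They included Reln, which encodes the secreted protein reelin (-0.47), and Sst, which encodes somatostatin (-0.27). Without sham 3 the call of Sst was lost (edgeR adjusted p = 0.0594). Of 4 tested motor neuron genes 2 fell (median -0.19), Prph and Slc5a7, the latter not without sham 1, sham 2, BCP 2 or BCP 3 (adjusted p from 0.114 to 0.179), in edgeR's exact and likelihood ratio tests (0.0808 and 0.0787) or with library size only (0.0881). Of 7 genes of oligodendrocyte precursors 2 fell (median -0.01), and of 6 tested endothelial genes none passed edgeR's test (median -0.01).

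Gabrr2, which encodes a rho subunit best known from the retina, was left out by the filter and was picked after its values were seen. It had 1, 0 and 1 counts in sham and 4, 10 and 9 counts in BCP. With no filter on low counts its edgeR adjusted p was 0.00538, and no fold change is given at this depth.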
